A study of Arabidopsis thaliana with 6 samples.

Results

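The NPH3 family is a group of plant proteins with a BTB domain and an NPH3 domain. The genes described here are 8 of its members: NPY1 (AT4G31820), NPY2 (AT2G14820), NPY3 (AT5G67440), NPY4 (AT2G23050), NPY5 (AT4G37590), NPH3 (AT5G64330), RPT2 (AT2G30520) and AT1G67900. They were chosen by their gene codes, with results of these data known, out of 33 family genes in the reference annotation and 33316 genes in the tables. Because they were chosen with the contrast of DEX against Mock in view, that contrast is given for them as a description without a test. RNA was sequenced from second internodes of Arabidopsis plants labelled p35S:Myc-GR-bdl, with 3 Mock libraries and 3 DEX libraries taken after 3 h, the DEX plants having received 15 µM dexamethasone (Dex). Both groups carry the same transgene. It joins bdl, a stabilized form of the Aux/IAA repressor BODENLOS, to the glucocorticoid receptor domain, so that Dex lets the repressor enter the nucleus, and the 35S promoter drives it broadly rather than in a single tissue. The labels disagree on the genotype: sample titles and source names state the transgene, the protocol for growing the plants states wild type (Col-0), and the titles were followed. The study likewise reports this profiling from p35S:Myc-GR-bdl plants, and gives Col-0 as the accession of nearly all its lines. No library without the transgene was analysed here, so the action of Dex itself and that of the nuclear repressor cannot be told apart. The series description speaks of RNA pooled from 3 samples, and the study's methods describe the replicates as biological, each from 3 plants.

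In Arabidopsis, NPH3 binds the blue light receptor phototropin 1 and serves as a substrate adaptor of a CUL3 ubiquitin ligase in phototropism. RPT2 binds phototropin 1 as well and acts in phototropism and chloroplast movement. The NPY proteins act with PINOID-type AGC kinases and PIN auxin exporters in organ formation and root gravitropism, and auxin itself reaches its target genes through ARF transcription factors, which Aux/IAA proteins such as BODENLOS hold in check.

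Depth was even, with 30601253 to 37812400 total gene reads per library, of which 96.4% to 96.9% were unique to a gene. The first principal component carried 64.8% of the variance and separated the groups. Of 10 stem markers, 9 were above 1 CPM (reads scaled to library size) in every library, PDF1 being the exception, and the 10 summed to 3972 to 4274 CPM in Mock and 3383 to 4410 CPM in DEX. Most of that sum came from the xylem cellulose synthases CESA4, CESA7 and CESA8 (3487 to 3775 CPM in Mock and 3030 to 4048 CPM in DEX). The sum therefore says little about the other markers. WOX4, a cambium regulator, fell from 15.8, 18.5 and 13.9 CPM to 3.68, 5.14 and 4.17 CPM (log2 difference -1.89 ± 0.17, edgeR adjusted p = 0.000493). Of the 9 tested markers, it alone was called. The cambium receptor gene PXY and the companion cell gene SUC2 were lower in each DEX library than in each Mock library, at 69.5% and 70.5% of the Mock level. That was so for 14.3% of all tested genes. The phloem regulator APL and the epidermal ATML1 were higher in each, at 135.5% and 110.1%. None of these genes was called (edgeR adjusted p = 0.189, 0.0873, 0.0515 and 0.443). The part of cell type makeup in the results was not tested. The 6 markers of flowers and shoot meristems stayed near 0, with WUS at 0 reads. They summed to 0.225 to 0.567 CPM in Mock and 0.245 to 0.335 CPM in DEX. The root markers PLT1 and PIN2 summed to 0.676 to 0.798 CPM in Mock and 1.05 to 1.55 CPM in DEX. Ribosomal RNA genes took 0.195% to 0.584% of the reads in Mock and 0.126% to 0.167% in DEX, and their part in the results was not tested. Of 19598 genes with enough reads for the fit, 11.9% were called at an adjusted p below 0.05, 5.5% having fallen and 6.38% having risen in DEX, with a median log2 fold change of -0.01.

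Of the 8 genes, 6 had enough reads for the fit over all genes and 2, NPY2 and NPY4, did not. All 6 were lower in each DEX library than in each Mock library, which was so for 14.3% of all tested genes. The call threshold was passed downwards by 5 of the 6 and upwards by 0, beside 5.5% and 6.38% of all tested genes. Since the choice of genes used this contrast, these counts describe the selection and carry no support of their own. The genes differed most in how far they fell. AT1G67900 and NPY5 were down to 13.5% and 14.1% of their Mock level, NPY1, NPY3 and RPT2 to between 51.6% and 71.8%, and NPH3, which was not called, stood at 78.5%. In whole-internode RNA, fewer cells of a type and less RNA per cell cannot be told apart.

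**Figure D1:**
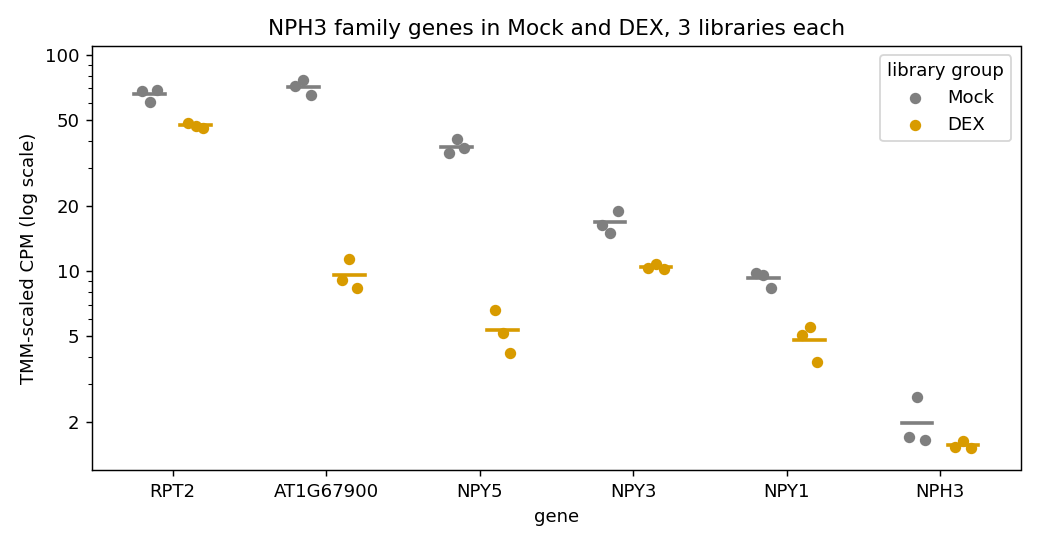
TMM-scaled CPM on a log axis for the 6 genes with enough reads, with a point for each library and a line for the mean of the 3 libraries of a group. DEX points lie below Mock points for every gene, by the widest gap for AT1G67900 (65.4 to 76.3 CPM against 8.31 to 11.4 CPM) and the narrowest for NPH3 (1.65 to 2.62 CPM against 1.53 to 1.63 CPM).

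AT1G67900, a family member annotated only as a phototropic-responsive NPH3 family protein, lies on chromosome 1 from 25464376 to 25470189 on the plus strand (RefSeq TAIR10.1), with 6 annotated transcripts of 4 to 6 exons. It had 2225, 2591 and 2538 total gene reads in Mock 1 to 3 and 327, 357 and 305 in DEX 1 to 3. After scaling by TMM these were 71.6, 76.3 and 65.4 CPM in Mock and 9.12, 11.4 and 8.31 CPM in DEX. The DEX libraries lie close together and far below every Mock library. The log2 fold change was -2.89 ± 0.14 (SE, n = 3 libraries per group), or 7.40-fold lower.

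NPY5, which in Arabidopsis acts redundantly with NPY1 and NPY3 in organ formation, lies on chromosome 4 from 17662840 to 17666736 on the minus strand and has 5 exons. It had 1099, 1379 and 1440 reads in Mock and 238, 162 and 153 in DEX. The corresponding levels were 35.4, 40.6 and 37.1 CPM in Mock and 6.64, 5.18 and 4.17 CPM in DEX. Among the DEX libraries DEX 1 was the highest, and it was still far below the lowest Mock library. The log2 fold change was -2.82 ± 0.17, so that the SE intervals of NPY5 and AT1G67900 overlap.

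NPY1, also known as ENHANCER OF PINOID or MACCHI-BOU 4 acts with PINOID, and seedlings that lack both fail to form cotyledons. It lies on chromosome 4 from 15390519 to 15394626 on the minus strand. NPY1 had 306, 327 and 325 reads in Mock and 182, 172 and 140 in DEX, equal to 9.85, 9.63 and 8.37 CPM against 5.07, 5.50 and 3.82 CPM. Its log2 fold change was -0.95 ± 0.16. The gap between the groups was wider than the spread within either.

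NPY3, which acts with NPY1 and NPY5, lies on chromosome 5 from 26912707 to 26916453 on the minus strand. It had 510, 512 and 739 reads in Mock and 369, 339 and 376 in DEX, equal to 16.4, 15.1 and 19.0 CPM against 10.3, 10.8 and 10.2 CPM. Mock 3 was the highest library, and the 3 DEX libraries were almost level. Its log2 fold change was -0.69 ± 0.11.

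The other NPY genes were barely present in this tissue. NPY2 had 4, 1 and 10 reads in Mock and 0, 1 and 1 in DEX. The ranges meet at 1 read, and the group totals of 15 and 2 reads are too few to measure a ratio. NPY2 shares part of its position with AT2G14810, but all reads of NPY2 were unique and AT2G14810 had none. NPY4 had a single read, in Mock 1. At this depth a count of 0 in a library allows up to 3 reads, or 0.0773 to 0.0965 CPM, so no difference in NPY4 was detectable.

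RPT2 lies on chromosome 2 from 13002686 to 13005746 on the minus strand. It had 2118, 2052 and 2660 reads in Mock and 1734, 1473 and 1692 in DEX, equal to 68.1, 60.4 and 68.5 CPM against 48.4, 47.1 and 46.1 CPM. The change was modest but even over libraries, with a log2 fold change of -0.48 ± 0.08.

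NPH3, the founding member of the family, lies on chromosome 5 from 25727126 to 25730358 on the plus strand and overlaps AT5G64340. It was scarce in these internodes, with 53, 89 and 64 reads in Mock and 55, 51 and 56 in DEX. The scaled levels were 1.71, 2.62 and 1.65 CPM in Mock and 1.53, 1.63 and 1.53 CPM in DEX. DEX 2 and Mock 3 nearly touch, and Mock 2 stands well above the other libraries. The log2 fold change of -0.35 ± 0.23 was not called, and without Mock 2 it was -0.10.

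Levels of different genes were compared per exon length, as RPKM (reads scaled to exon length and to the library's total). RPKM is not scaled by TMM, whose factors were 1.017 to 1.028 in Mock and 0.958 to 0.997 in DEX. Between the groups, RPKM therefore puts DEX slightly lower than the CPM values do. In Mock the order was RPT2 (29.6 ± 1.98, SD, n = 3), AT1G67900 (26.6 ± 2.00), NPY5 (13.4 ± 0.972), NPY3 (6.39 ± 0.783), NPY1 (3.56 ± 0.307), NPH3 (0.737 ± 0.200), NPY2 (0.0744 ± 0.0617) and NPY4 (0.00617 ± 0.0107). RPT2 and AT1G67900 overlapped, at 27.4 to 31.02 RPKM and 24.6 to 28.6 RPKM, and so did NPY2 and NPY4. The other neighbours were separated in all 3 libraries. Among 22344 genes with an RPKM above 0, RPT2 and AT1G67900 stood at percentiles 79.7 and 77.5 of the Mock level and NPH3 at percentile 21.1.

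In DEX the order of the members was different. RPT2 remained first at 20.2 ± 0.431 RPKM. NPY3 came next at 3.79 ± 0.183 RPKM, overlapping AT1G67900 at 3.44 ± 0.628 RPKM. NPY5 at 1.80 ± 0.389 RPKM overlapped NPY1 at 1.74 ± 0.325 RPKM, and NPH3 followed at 0.567 ± 0.0318 RPKM. Within the whole family of 33 genes, AT1G67900 moved from rank 3 in Mock to rank 11 in DEX and NPY5 from rank 6 to rank 15, whereas RPT2 kept rank 2 and NPY3 moved from rank 13 to rank 8.

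The makeup of the NPY transcripts differed accordingly. Summed over NPY1 to NPY5, the level was 23.4 ± 0.796 RPKM in Mock and 7.34 ± 0.706 RPKM in DEX. NPY5 made up 57.2% ± 2.78 of that sum in Mock and 24.4% ± 3.72 in DEX, NPY3 went from 27.3% ± 3.20 to 51.9% ± 4.58, and NPY1 from 15.2% ± 1.66 to 23.6% ± 2.34. NPY5 was thus the main NPY transcript of the Mock internodes and NPY3 that of the DEX internodes, although NPY3 itself was lower in DEX. Summed over all 8 genes, the level was 80.4 ± 0.360 RPKM in Mock and 31.6 ± 1.68 RPKM in DEX. RPT2 took 36.9% ± 2.62 of it in Mock and 64.1% ± 2.09 in DEX, and AT1G67900 took 33.1% ± 2.35 and 10.8% ± 1.45.

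**Figure D2:**
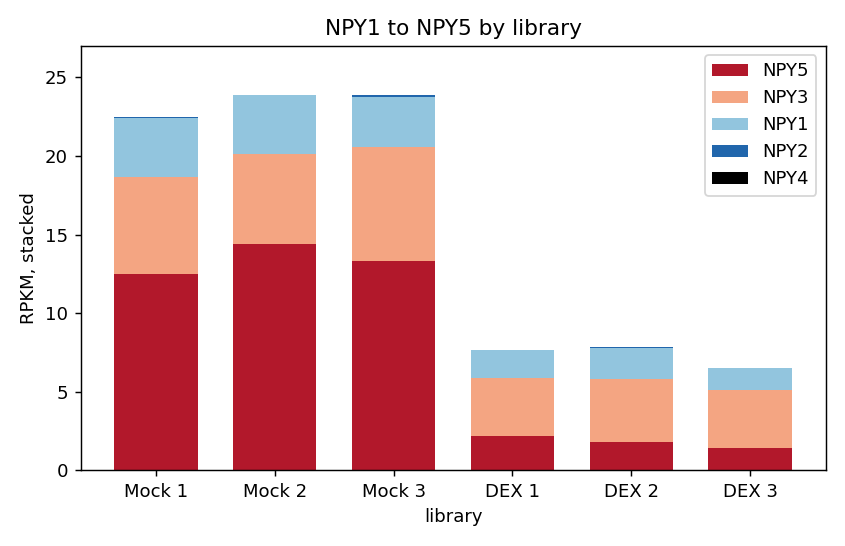
RPKM of NPY1 to NPY5 stacked for each of the 6 libraries, starting at 0. NPY5 is the largest part of every Mock library (55.5% to 60.4%), NPY3 is the largest part of every DEX library (47.7% to 56.8%), and NPY2 and NPY4 are too low to be seen clearly.

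The tables also count reads on introns, which can hold unspliced RNA, retained introns or exons missing from the gene model used. AT1G67900 was the only member with more than 20 such reads over the 6 libraries. It had 68, 51 and 62 intron reads in Mock and 2, 5 and 6 in DEX, so every DEX library was far below every Mock library. The totals of 181 and 13 give a ratio of 13.9, beside a 7.40-fold difference in total gene reads. Whether these ratios differ was not tested. As a share of the gene's reads, intron reads were 3.06%, 1.97% and 2.44% in Mock and 0.612%, 1.40% and 1.97% in DEX. The highest DEX share and the lowest Mock share were nearly equal, so the share did not separate the groups clearly. Over the Mock libraries together it was 2.46%, at percentile 96.6 of 12661 genes with at least 1000 Mock reads, whose median share was 0.23%. Genes without an annotated intron were not left out of that set, which may lower its median and raise the percentile.

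Exon reads and intron reads of AT1G67900 together exceeded its total gene reads by 130 over the 6 libraries, so at least that many reads were counted under both headings, and the intron reads are not purely intronic sequence. Its annotated transcripts differ in their exons, and the tables do not say which intron the reads fell on. For the other genes intron reads were few. NPY5 had 3, 4 and 6 in Mock and 0, 1 and 0 in DEX, or 13 against 1, too few reads to measure a ratio. NPY3 had 4 in Mock and 6 in DEX, NPH3 had 8 and 5, NPY1 and RPT2 each had 2 and 0, and NPY2 and NPY4 had 0, so a difference in their intron reads was not detectable at this depth.

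**Figure D3:**
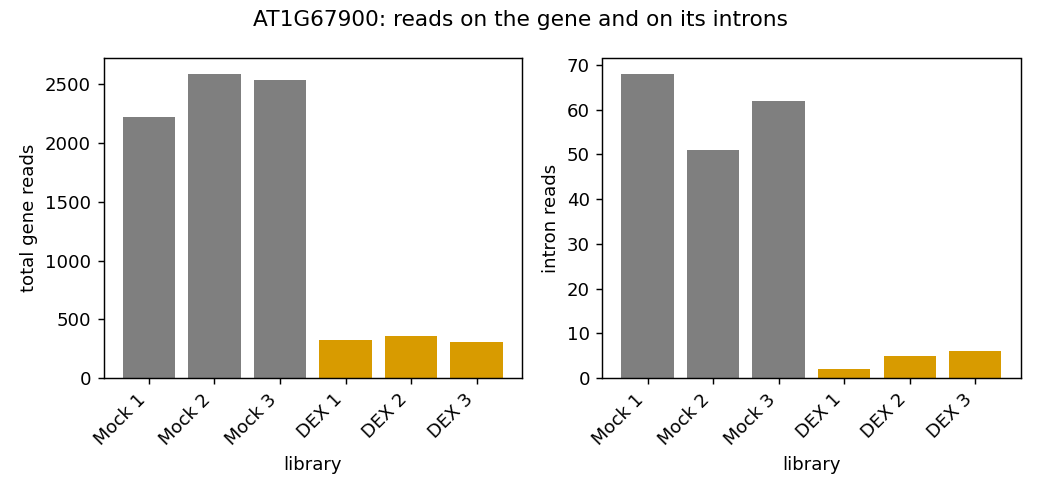
Total gene reads (left) and intron reads (right) of AT1G67900 in each library, as unscaled counts from 0, with Mock in grey and DEX in orange. Total reads run from 2225 to 2591 in Mock and from 305 to 357 in DEX, and intron reads from 51 to 68 and from 2 to 6.

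ARF proteins are known to bind DNA elements built on the core TGTC, such as TGTCTC and TGTCGG, and the 250 bases before the annotated start of each gene were searched for these letters on both strands. The promoters of AT1G67900, NPY5 and NPY1 are shown because these are the 3 members with the largest fall and they hold 5, 1 and 0 cores. They lie at chr1:25464126-25464375 (plus strand), chr4:17666737-17666986 (minus strand) and chr4:15394627-15394876 (minus strand) of RefSeq TAIR10.1 and are written 5′ to 3′ in the direction of the gene, with the core TGTC, or GACA where it lies on the other strand, in capitals.
AT1G67900: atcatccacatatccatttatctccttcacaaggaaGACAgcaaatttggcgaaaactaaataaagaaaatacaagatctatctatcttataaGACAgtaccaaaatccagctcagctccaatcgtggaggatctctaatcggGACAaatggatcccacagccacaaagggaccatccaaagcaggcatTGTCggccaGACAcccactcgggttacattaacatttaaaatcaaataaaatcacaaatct
NPY5: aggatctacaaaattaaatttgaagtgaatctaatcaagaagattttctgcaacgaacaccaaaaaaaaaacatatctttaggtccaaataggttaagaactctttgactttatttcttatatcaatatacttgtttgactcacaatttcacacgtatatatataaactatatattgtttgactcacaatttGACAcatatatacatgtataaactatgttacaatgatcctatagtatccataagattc
NPY1: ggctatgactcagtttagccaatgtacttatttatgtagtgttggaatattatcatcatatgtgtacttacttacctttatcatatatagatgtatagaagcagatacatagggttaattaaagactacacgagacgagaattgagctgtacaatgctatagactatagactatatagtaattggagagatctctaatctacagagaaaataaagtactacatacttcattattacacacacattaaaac
A core was present in 6 of the 8 promoters and in 74.8% of 27443 promoters of the same length, with a mean of 1.47 cores. NPH3 had 4, RPT2, NPY2 and NPY4 had 1 each, and NPY3 had 0. As few as 2.41% of all promoters held 5 or more cores, as that of AT1G67900 did. A core of that promoter is part of TGTCGG, an element found in 4.16% of promoters and in 0 of the other 7. TGTCTC, found in 10.9% of promoters, was in 0 of the 8. NPY5 and AT1G67900 fell by similar amounts and held 1 and 5 cores. Of the 33 family promoters, 23 held a core, 2 a TGTCGG and 4 a TGTCTC. Those with TGTCTC belong to AT5G48800 (log2 fold change -2.25), AT5G66560 (-1.40), AT3G44820 (0.09) and AT3G49970, which had too few reads for the fit. AT3G08570, the other family gene with a TGTCGG, was singled out after its values were seen and also held 5 cores. Its log2 fold change was -0.05 ± 0.27. The part of these letters in the change was not tested. The absence of these letters from a window says nothing about sites elsewhere.

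In protein sequence, translated from the reference coding sequences, NPY1 to NPY5 shared 47.9% to 71.5% of aligned residues in 10 pairs. Their identity with NPH3, RPT2 or AT1G67900 was 33.4% to 48.8% in 15 pairs. The closest NPY pair was NPY4 (481 residues) and NPY5 (580 residues) at 71.5%, of which NPY4 had 1 read in all 6 libraries and NPY5 had 4471. NPY5 and NPY3 shared 58.6% and fell by unlike amounts, with log2 fold changes of -2.82 and -0.69. AT1G67900 (631 residues) was closest not to an NPY protein but to AT3G26490, at 59.4%.

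The remaining 25 family genes were not among the 8 chosen. They were tested in the fit over all genes (edgeR quasi-likelihood F test with Benjamini-Hochberg adjustment over 19598 genes). The family itself was in view with results of these data known, so the counts of these 25 genes give no independent support for a family-wide change. Of the 19 with enough reads, 8 fell, 0 rose and 11 were not called, beside 5.5% that fell and 6.38% that rose among all tested genes, with a median log2 fold change of -0.26 beside -0.01 for all tested genes. In 10 of the 19, every DEX library was below every Mock library, as in 14.3% of all tested genes. Summed over these 25 genes, the level was 139.2 ± 5.83 RPKM in Mock and 96.6 ± 7.03 RPKM in DEX.

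AT5G47800 changed most, from 14.6, 19.8 and 15.3 CPM in Mock to 1.48, 2.43 and 1.69 CPM in DEX, a log2 difference of -3.16 ± 0.22 (edgeR adjusted p = 0.000167). Its closest family protein was AT1G67900, at 43.5% identity. AT5G48800 fell from 39.1, 34.6 and 34.2 CPM to 7.75, 8.53 and 6.46 CPM (log2 fold change -2.25 ± 0.13, edgeR adjusted p = 8.81e-05). SETH6 (AT2G47860), known for its part in pollen germination and tube growth, fell from 16.5, 14.9 and 16.1 CPM to 4.27, 5.08 and 4.55 CPM (log2 fold change -1.77 ± 0.11, edgeR adjusted p = 0.000124). The groups were far apart in all 3 genes. AT1G03010, the closest protein to SETH6 at 63.6%, fell by 1.60 on the log2 scale (edgeR adjusted p = 0.00595). AT3G26490, the closest to AT1G67900, fell by 1.22 (edgeR adjusted p = 0.00327), from 10.2, 8.51 and 9.27 CPM to 4.77, 3.93 and 3.27 CPM. AT5G47800 and AT5G48800 share part of their positions with neighbouring genes, and no source used here says whether strand was considered in counting.

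A pair of close relatives, AT5G66560 and AT3G50840, had log2 fold changes of opposite sign. AT5G66560 fell by 1.40 on the log2 scale (edgeR adjusted p = 0.00177), whereas AT3G50840, with 73.1% of residues in common, had 18.0, 16.3 and 24.8 CPM in Mock and 25.0, 27.1 and 41.4 CPM in DEX. The groups did not overlap, yet AT3G50840 was not called, at a log2 difference of 0.66 ± 0.23 (edgeR adjusted p = 0.127). With a replicate block its adjusted p was 0.00177 and in DESeq2 0.0366. The difference between these genes was not tested. As few as 6.47% of the reads of AT5G66560 were unique, and the antisense gene AT5G66558 overlaps it, so its value is uncertain. In unique reads its log2 fold change was -1.38 (edgeR adjusted p = 0.0123).

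The calls of the other genes were less firm. AT3G15570 fell by 1.03 ± 0.21 on the log2 scale (edgeR adjusted p = 0.0209), and the call was lost on leaving out any library except DEX 3, with adjusted p up to 0.0731. AT1G30440, whose RPKM was the highest of the family in DEX and overlapped that of RPT2 in Mock, fell by 0.26 ± 0.07 (edgeR adjusted p = 0.0449), and on leaving out any single library, with limma-voom or without a count filter it was not called (adjusted p up to 0.181). NCH1 (AT5G67385), a relative of RPT2 that acts with it in chloroplast accumulation, was by its Mock CPM the most abundant gene among those not called. It had 38.8, 35.1 and 33.7 CPM in Mock and 29.9, 32.3 and 28.2 CPM in DEX, a log2 difference of -0.25 ± 0.09 (edgeR adjusted p = 0.147). DOT3, AT5G13600 and AT5G48130 had 0 reads in all libraries.

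**Figure D4:**
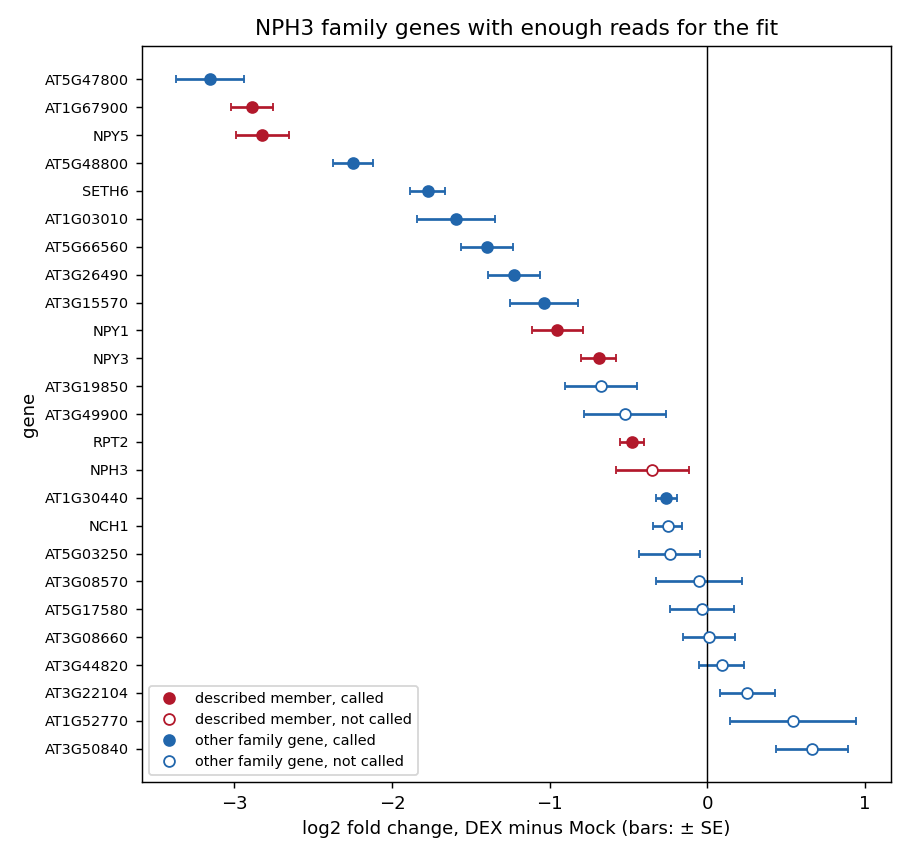
Log2 fold change, DEX minus Mock, with its SE, for the 25 family genes with enough reads, in order of size. Of the described members in red and the other family genes in blue, filled points passed the call threshold (5 of 6 and 8 of 19). Open points did not. Every filled point lies below 0, from -3.16 for AT5G47800 to -0.26 for AT1G30440. Among all tested genes, 5.5% fell and 6.38% rose. The members were chosen with this contrast in view, so their filled points describe the selection. The other family genes give no independent support either.

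Lists of genes that act with NPY and NPH3 proteins were read from the same fit. They too were drawn up with results of these data known. The counts and adjusted p values of every list therefore give no independent support for a change in these pathways. As a description, the counts stand beside the 5.5% that fell and 6.38% that rose among all tested genes. Of the 7 PIN auxin exporters reported here 6 were tested, and 4 fell and 0 rose, with a median log2 fold change of -2.26. The 4 were PIN3 (-3.90 ± 0.18), PIN4 (-3.98 ± 0.29), PIN6 (-1.57 ± 0.15) and PIN7 (-2.95 ± 0.24), with edgeR adjusted p between 4.12e-05 and 0.000846. PIN5, which sits in the endoplasmic reticulum, had a log2 fold change of 0.03 ± 0.32 and was not called. PIN2 was higher in each DEX library (1.05 to 1.53 CPM) than in each Mock library (0.676 to 0.773 CPM). It was not called (log2 fold change 0.88 ± 0.24, edgeR adjusted p = 0.0534). With the stricter count filter, with unique reads and without DEX 2 it was called as higher (edgeR adjusted p down to 0.0451).

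Of 8 AGC kinases, which phosphorylate PIN proteins or belong to the same group, 2 fell (5.5% of all tested genes did) and 0 rose, with a median of -0.43. PID2 had 26, 15 and 18 reads in Mock and 3, 1 and 1 in DEX (log2 fold change -3.48 ± 0.54, edgeR adjusted p = 0.00611). WAG2 had 60, 71 and 59 reads against 6, 20 and 8 (-2.46 ± 0.45, edgeR adjusted p = 0.0121, and 0.0547 without Mock 2, which left 1 of the 8 called). D6PK, the most abundant kinase of the list, stood at 67.2 ± 1.51 CPM (Mock) against 62.4 ± 2.36 CPM (DEX) and was not called (log2 fold change -0.11 ± 0.07). WAG1, at a log2 difference of -1.33 ± 0.36, was not called (edgeR adjusted p = 0.0585), but it was with DESeq2, limma-voom, a replicate block and without DEX 2 (0.0165 to 0.0427). PID itself had a log2 fold change of -0.75 ± 0.27 and was not called, with an edgeR adjusted p of 0.146, but it was with a replicate block (0.0397) and without Mock 3 (0.0259).

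Of 8 genes of phototropin signalling 7 were tested, and 3 fell and 0 rose (5.5% and 6.38% of all tested genes), with a median of -0.01. The 3 were PKS1 (-1.37 ± 0.16, edgeR adjusted p = 0.00193), PKS2 (-1.64 ± 0.17, 0.0011) and PKS4 (-1.33 ± 0.28, 0.0229), which encode substrates and partners of phytochromes and phototropins. The call of PKS4 was lost on leaving out any library except DEX 1, with adjusted p up to 0.0741. The light receptor gene PHOT1 was the most abundant of the list and was not called, its level being 129.1 ± 16.1 CPM (Mock) against 167.3 ± 3.79 CPM (DEX) (log2 fold change 0.37 ± 0.11, edgeR adjusted p = 0.0661). It was called as higher in DEX with DESeq2 (0.0145), a replicate block (0.0238) and without Mock 3 (0.0337). CUL3A, the ligase scaffold, had a log2 fold change of 0.00 ± 0.08. Of 5 auxin synthesis genes, which share organ phenotypes with the NPY genes, only YUC6 had enough reads. Its log2 fold change of -1.12 ± 0.42 was not called (edgeR adjusted p = 0.158), though without DEX 3 it was (0.0137).

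**Figure D5:**
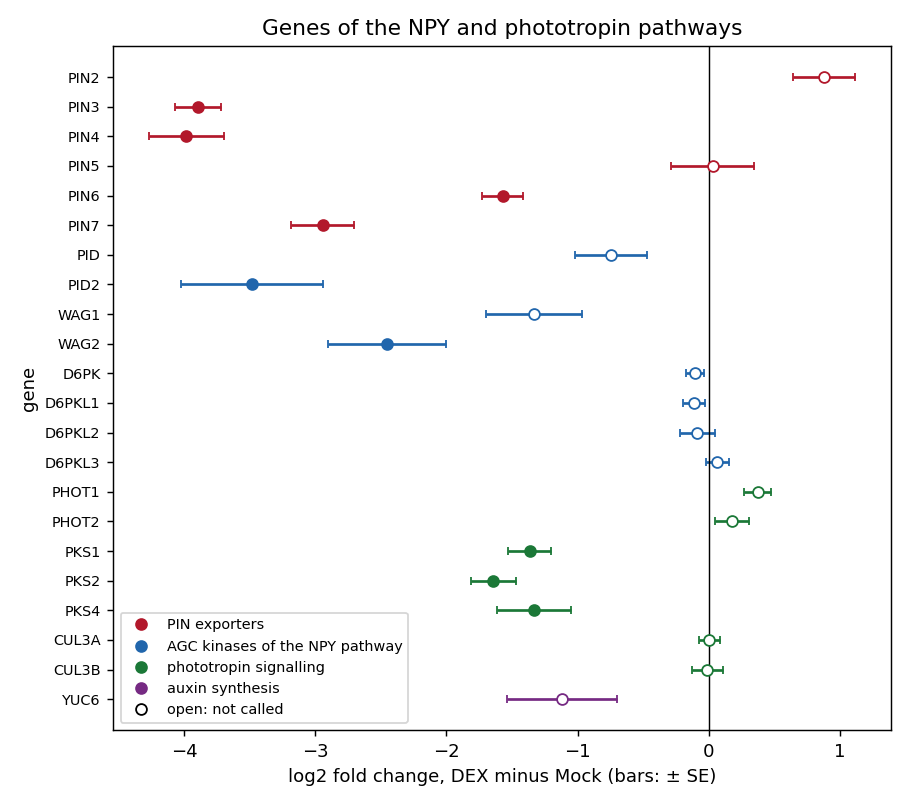
Log2 fold change, DEX minus Mock, with its SE, for the 22 tested genes of the 4 lists, coloured by list, with open points for genes not called. The 9 filled points lie below 0, from -3.98 for PIN4 to -1.33 for PKS4. Among all tested genes, 5.5% fell and 6.38% rose.

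For AT1G67900, NPY5 and NPY1, the genes outside the family whose levels ran most alike over the 6 libraries were found by Pearson r of log2(CPM + 0.5). All points share the treatment, so r is high for many genes that moved with it, and 144, 87 and 30 genes were above 0.99. The closest to AT1G67900 were WAT1 (AT1G75500), a vacuolar auxin transporter (r = 0.9995), and FAF3 (AT5G19260, r = 0.9991). The closest to NPY5 were AT5G50150 (r = 0.9994) and ACL5 (AT5G19530), the thermospermine synthase (r = 0.9991). The closest to NPY1 were CDF3 (AT3G47500), a DOF transcription factor (r = 0.9984), and PDCB4 (AT1G69295), a plasmodesmal callose-binding protein (r = 0.9972). Likeness of pattern was not likeness in size: WAT1 had a log2 fold change of -1.85 ± 0.10 beside -2.89 for AT1G67900, and PDCB4 one of -0.38 ± 0.09 beside -0.95 for NPY1.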

How the data were processed

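The authors aligned single-end reads to TAIR10 with CLC Genomics Workbench, and library preparation marked the strand. The deposited tables give counts per gene (total, unique, exon, exon-exon and intron reads) and RPKM, for which the authors divided exon reads by exon length and by the library's total gene reads. Entries without a gene name held 0.0930% to 0.135% of the reads and were left out. The members and lists were chosen with earlier results of these data known. Total gene reads were fitted with edgeR 4.0.16 (R 4.3.3): filterByExpr, which kept 19598 genes and removed 13718 holding 0.0298% of the reads, TMM scaling, and the two-sided quasi-likelihood F test with Benjamini-Hochberg adjustment at 0.05. The biological coefficient of variation was 15.8%. The fit was tested on simulated data. CPM values are TMM-scaled. Alternatives were other scalings and count filters, unique or exon reads, DESeq2 1.42.0, limma-voom (limma 3.58.1), a replicate block and leaving out each library; the closing section gives their effect. Genes named were the 8 members and every other family or list gene that was called. The most abundant gene not called in each list was named too. So were the 2 genes most alike to each of the 3 members with the largest change, and the family genes with a TGTCTC. AT3G50840, AT3G08570, PIN2, PID, WAG1, CUL3A, single stem markers and the genes at 0 reads were singled out after their values were seen. Of the pathway lists, 1 gene is not reported here. Promoters and coding sequences were read from RefSeq TAIR10.1, whose annotation matched 32828 of the 33316 identifiers, and all 33 family genes. Proteins were aligned globally with Biopython 1.88. The bound of 3 reads for a count of 0 covers counting error only.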

Additional observations from a re-analysis of the deposited data

How the results depend on the processing

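The 6 tested members kept their direction and their side of the threshold under all 16 alternatives, which, since the contrast chose them, describes the selection. Over the alternatives that leave out a library the log2 fold changes ranged from -3.03 to -2.79 for AT1G67900, -3.01 to -2.67 for NPY5, -1.06 to -0.81 for NPY1, -0.76 to -0.59 for NPY3, -0.53 to -0.44 for RPT2 and -0.47 to -0.10 for NPH3. Counts over all genes moved more. Leaving out 1 library gave 690 to 1000 genes that fell and 615 to 1198 that rose, the lowest of both without Mock 2, in place of 1077 and 1250. Scaling by library totals gave 1278 that fell and 1016 that rose. Samples with the same replicate number correlated in their deviations from the group means at 0.5685, 0.0492 and 0.5572. Mock 1 with DEX 3 and Mock 3 with DEX 1 were at -0.5857 and -0.5056. The second principal component (21.0% of the variance) put Mock 1 to 3 at 23.4, -1.3 and -21.3. It put DEX 1 to 3 at 23.2, 7.2 and -31.2. Replicates 1 and 3 thus ran alike by number, whereas Mock 2 correlated best with DEX 3 (0.06194) and DEX 2 with Mock 1 (0.1493). The main fit did not use the numbers, and whether they mark a batch was not tested. With a replicate block, 1722 genes fell and 2258 rose. Other family genes that rose numbered 1 with DESeq2 and 1 with the block (AT3G50840), and those that fell 6 to 7 when a library was left out. PIN exporters that rose numbered 1 (PIN2) with the stricter count filter, 1 with unique reads and 0 to 1 on leaving out a library. AGC kinases that fell numbered 1 with the stricter filter, 4 with the block and 1 to 3 on leaving out a library. Phototropin signalling genes that rose numbered 1 with DESeq2, 1 with the block and 0 to 1 on leaving out a library, and auxin synthesis genes that fell 0 to 1. The cause of these shifts was not tested. Of 669 results for single genes under an alternative, 635 kept their side of the threshold, 15 newly passed it, 19 no longer did, and 0 changed direction past it. Depth limits NPY2, NPY4 and the intron reads of every member but AT1G67900.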
